A study of Mus musculus with 2 samples.

Results

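The proteasome genes of the aged mouse thymus carried open promoters almost throughout. The set was chosen by symbol alone: protein-coding genes of the GENCODE M21 annotation whose symbol starts with Psma, Psmb, Psmc, Psmd, Psme, Psmf or Psmg followed by a number, without Psmb8, Psmb9 and Psmb11, which gave 47 of 21827 protein-coding genes. By the role of their products they were 16 core genes, 17 cap genes, 7 assembly genes, 6 genes of activators and an inhibitor, and Psmc3ip, which fits the rule by its symbol only. Chromatin accessibility had been mapped by DNase-seq, in which the enzyme DNase I cuts nuclear DNA where it is exposed, in thymus tissue of female B6CASTF1/J mice, first-generation hybrids of the B6 and CAST strains, at an age of 18 to 20 months. There were 2 libraries, biological replicates 1 and 2, in 1 group; both refer to 1 donor record and to biosample records of their own, and separate animals are not stated. The spread between them may therefore be technical, and no age, sex, tissue or treatment could be compared.

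The proteasome degrades proteins tagged with ubiquitin. Its core particle is a barrel of stacked rings of α and β subunits, and the β rings hold the active sites. A cap, the regulatory particle, recognises ubiquitin, removes it, unfolds the substrate with a ring of ATPases and feeds it into the core. Dedicated chaperones assist the assembly of core and cap, and other activators can dock on the core in place of the cap. The peptides it makes are the main source for MHC class I, on which developing thymocytes are selected, and thymic cortical epithelium has a β subunit of its own, encoded by Psmb11.

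The shorter of the 2 peak lists of each library held 49872 peaks in replicate 2 and 50648 in replicate 1, and each peak has a signal value whose scale is not stated. The median peak had a signal of 1.43 in replicate 2 and 1.66 in replicate 1. The number of reads behind a peak is unknown, so no counting error can be given. Short protected stretches inside open DNA, called footprints, numbered 247677 in replicate 2 and 223227 in replicate 1. Markers of thymocytes had a promoter peak in both libraries at 12 of 15 genes, with none in the shorter lists at Ptprc and a peak in replicate 2 only at Cd4 and Dntt. For thymic epithelium the count was 5 of 8, with Foxn1 and Krt5 at 0 in every list, and for endothelium 1 of 4. Markers of B cells (0 of 4), myeloid cells (0 of 4), hepatocytes (0 of 3), muscle (0 of 3) and adipocytes (0 of 3) had no promoter peak in both libraries, although Pax5 had a peak of 0.744 in replicate 2 and Itgam of 1.18 in replicate 1.

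A promoter peak is a peak of the shorter list whose centre lies within 1 kb of an annotated start site of the gene, and the promoter signal of a gene is the value of its strongest one. Promoter peaks were present in both libraries at 45 of the 47 proteasome genes (95.7%), against 53.4% of all protein-coding genes. The count was 15 of 16 for the core, 17 of 17 for the cap, 7 of 7 for assembly and 5 of 6 for activators and inhibitor, and Psmc3ip was open too. Psma8 and Psme2b were the 2 genes without a peak; the longer lists held none there either, and no footprint and no base run with a listed q-value lay within 1 kb of their start sites. The median promoter signal over all 47 genes was 5.95 in replicate 2 and 6.35 in replicate 1, against 0.985 in replicate 2 and 1.21 in replicate 1 over all protein-coding genes, where a gene with no peak counts as 0. Among open genes, 29 of the 45 lay above the median of all open protein-coding genes, which was 5.59 for the mean of both libraries. In tissue, a promoter open in more cells and a promoter cut more often per cell cannot be told apart.

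**Figure D1:**
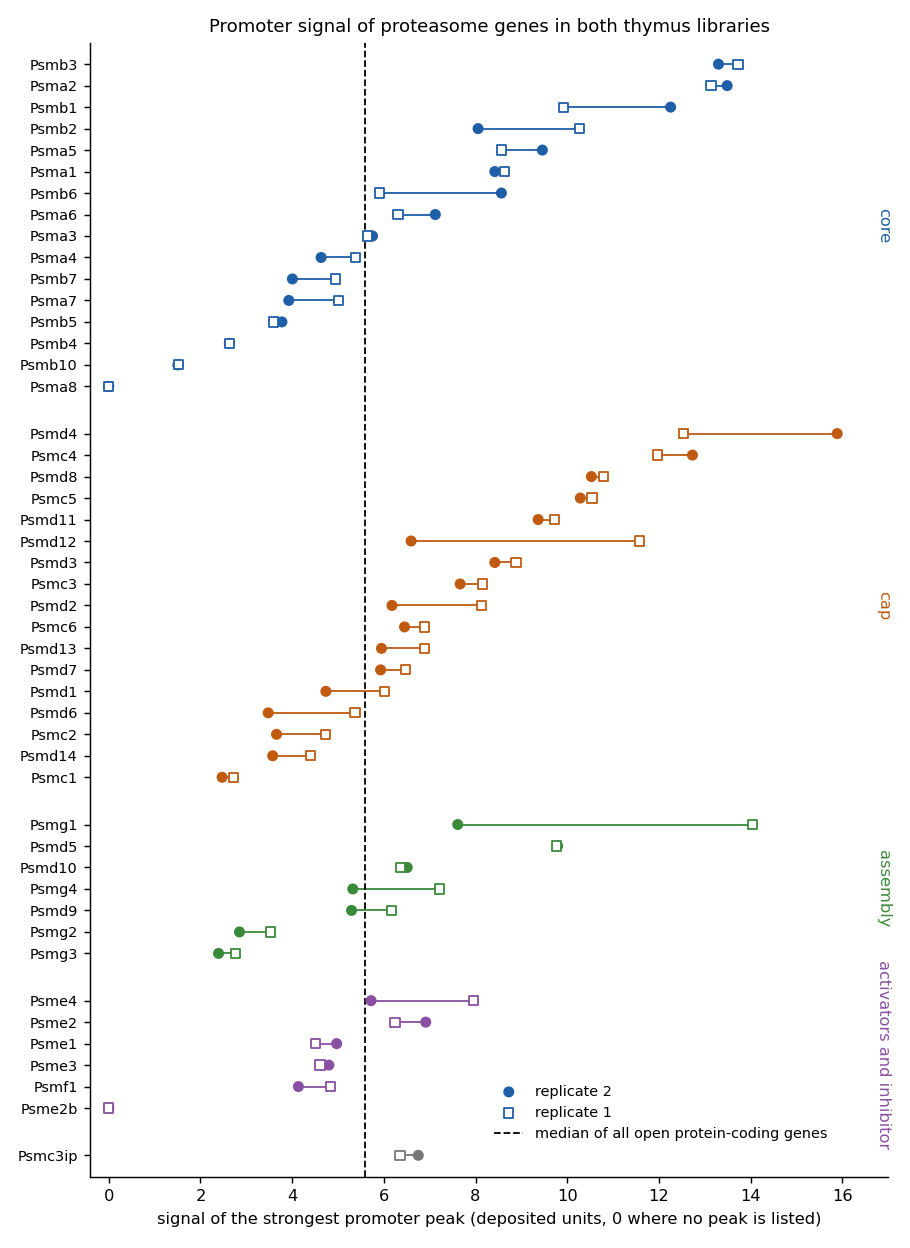
Signal of the strongest promoter peak (x axis, deposited units) of each proteasome gene in replicate 2 (filled circles) and replicate 1 (open squares), grouped by class; a line joins the 2 libraries, and the dashed line is the median over all open protein-coding genes, 5.59. Psmd4 reaches 15.9 in replicate 2, and Psma8 and Psme2b sit at 0.

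Open promoters are often rich in CpG, so the share was also read within base composition. The start site window, from 250 bases before to 50 bases after a representative start site, was called CpG-rich at a G and C content of at least 50% and an observed over expected CpG ratio of at least 0.6. By this measure 35 of 47 proteasome genes (74.5%) were CpG-rich, against 43.8% of all protein-coding genes. Of the CpG-rich proteasome genes 34 of 35 were open (97.1%), against 85.8% of all CpG-rich genes. Of those that were not CpG-rich 11 of 12 were open (91.7%), against 28.1% of all such genes. The gap to other genes was therefore smaller among CpG-rich windows. The same held for the signal of open genes, by the mean of both libraries. With CpG-rich windows the median was 6.78 for open proteasome genes, against 6.59 for all open genes. Without them it was 5.70 for open proteasome genes, against 3.57. The symbol rule uses no measured value, but this group of genes was taken up with results from these libraries known. These shares and medians therefore carry no test.

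Among 17 factor families, consensus letters were searched on both strands of the start site windows and in footprints. The footprints were those within 1 kb of any start site of the gene, each widened by 5 bases on each side. They can lie outside the window, so a gene may have letters in a footprint and none in its window. Letters counted as lying in a footprint of both libraries where each library had a widened footprint near the gene that held the whole match, even if these were different footprints. They were GGGCGG for SP and KLF factors, CCAAT for NF-Y, CCGGAAG for ETS factors, TGACGTCA for CREB and ATF, AANATGGC for YY1, TGACNNNGC for NFE2L1, CACGTG for the E-box, GAANNTTC for HSF, TATAAA for TBP, TGTGGT for RUNX and TGGGAA for Ikaros. The longer consensus sequences are given by name: NRF1 (nuclear respiratory factor), ZBTB33, CTCF, ZNF143, IRF factors and NF-kB. Shares of proteasome genes with letters are over all 47, which include 2 genes without a peak, also where shares over open genes stand beside them. In the sequences printed with each class, capitals mark bases that lie in footprints of both libraries. All are written 5′ to 3′ on the strand of the gene, from the GRCm38 (mm10) reference, end at or before the most upstream annotated start site and lie outside annotated exons. The reference is that of the B6 parent strain, and the CAST allele was not read.

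The α ring genes, which form the outer rings and the gate of the core, were open at 7 of 8. Psma2 was the highest, with 13.5 in replicate 2 and 13.1 in replicate 1. Psma5 had 9.46 in replicate 2 and 8.56 in replicate 1, and Psma1 had 8.42 in replicate 2 and 8.64 in replicate 1. Psma6 had 7.12 in replicate 2 and 6.31 in replicate 1, and Psma3 had 5.75 in replicate 2 and 5.64 in replicate 1. Psma4 (4.63 in replicate 2, 5.39 in replicate 1) and Psma7 (3.93 in replicate 2, 5.01 in replicate 1) were the lowest of the open α genes. Psma2 stood clear of the other α genes in both libraries, while Psma5 and Psma1 did not differ beyond their spread. Psma8, the unlisted gene, encodes an α subunit known from the testis. The Psma3 stretch, shown for its NRF1 consensus, runs over chr12:70974531-70974591 on the plus strand.

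Psma3: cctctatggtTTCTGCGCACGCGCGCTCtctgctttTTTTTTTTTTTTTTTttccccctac

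The NRF1 letters start 76 bases before the Psma3 start site and lie wholly within a footprint of both libraries.

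The β ring genes were open at 8 of 8 and spread more widely. Psmb3, a subunit without an active site, had the highest mean signal of the core, with 13.3 in replicate 2 and 13.7 in replicate 1. In replicate 2 alone, the α gene Psma2 was higher, with 13.5. Psmb1, also without an active site, had 12.3 in replicate 2 and 9.91 in replicate 1, and Psmb2, likewise, had 8.06 in replicate 2 and 10.3 in replicate 1. The last of the non-catalytic β genes, Psmb4, had 2.63 in each library. Of the constitutive catalytic genes, Psmb6, which encodes the caspase-like subunit, had 8.56 in replicate 2 and 5.91 in replicate 1. Psmb7, the trypsin-like subunit, had 4.01 in replicate 2 and 4.95 in replicate 1, and Psmb5, the chymotrypsin-like subunit, had 3.78 in replicate 2 and 3.59 in replicate 1. The 3 catalytic genes thus lay below Psmb3 and Psmb1 in both libraries. All 3 lay above Psmb4, however, and in replicate 2 Psmb6 was above Psmb2. The strongest Psmb1 peak lay at chr17:15499741-15499960 in both libraries, while its representative start site is at 15498298. It thus sits at another annotated start site of Psmb1, and it also lies near a start site of the neighbour Tbp.

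Psmb10, the immunoproteasome counterpart of Psmb7, had the lowest signal of the 45 open genes, 1.51 in replicate 2 and 1.52 in replicate 1. Its peak did not cover the start site: on mm10 it lay at chr8:105937942-105938220 in replicate 2 and chr8:105937981-105938240 in replicate 1, with its centre in an annotated exon 363 bp downstream of the start in replicate 2 and 334 bp in replicate 1. The window at its start site had an observed over expected CpG ratio of 0.249. For comparison, of the other immune and thymic β genes, which the symbol rule left out, Psmb9 had 13.9 in replicate 2 and 16.6 in replicate 1, Psmb8 had 5.98 in replicate 2 and 5.19 in replicate 1, and Psmb11 had no promoter peak in either library.

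The Psmb3 stretch, shown as that of the highest core gene by mean signal, covers chr11:97703172-97703398 on the plus strand. Psmb2, with the CREB and ATF letters and those of ZBTB33, is shown for chr4:126677526-126677629 on the plus strand. Psmb5, with a YY1 and an NFE2L1 match in footprints, is shown for chr14:54618023-54618103 on the minus strand.

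Psmb3: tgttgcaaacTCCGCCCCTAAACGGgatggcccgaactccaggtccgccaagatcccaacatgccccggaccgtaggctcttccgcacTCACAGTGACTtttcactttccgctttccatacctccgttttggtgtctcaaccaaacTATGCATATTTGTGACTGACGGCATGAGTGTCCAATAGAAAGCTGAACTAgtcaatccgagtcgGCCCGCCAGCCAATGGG
Psmb2: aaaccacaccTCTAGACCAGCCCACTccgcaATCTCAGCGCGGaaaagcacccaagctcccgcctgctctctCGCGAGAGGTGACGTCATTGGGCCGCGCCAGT
Psmb5: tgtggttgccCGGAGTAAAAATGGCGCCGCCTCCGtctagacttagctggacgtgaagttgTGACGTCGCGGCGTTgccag

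In Psmb2 the ZBTB33 letters start 35 bases and the CREB and ATF letters 23 bases before the start site, and an NF-Y match on the opposite strand overlaps the CREB and ATF letters. The ZBTB33 and the CREB and ATF letters touch the same footprint shared by the libraries. In Psmb3, NF-Y letters start 50 and 8 bases before the start site, in separate shared footprints. Psmb5 had 4 YY1 matches in its window, of which that at 64 bases before the start site lies in capitals.

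The ATPase genes of the cap were open at 6 of 6. Psmc4 led them with 12.7 in replicate 2 and 12.0 in replicate 1. Psmc5 had 10.3 in replicate 2 and 10.5 in replicate 1, Psmc3 had 7.66 in replicate 2 and 8.15 in replicate 1, and Psmc6 had 6.45 in replicate 2 and 6.88 in replicate 1. Psmc2 followed with 3.66 in replicate 2 and 4.73 in replicate 1, and Psmc1 with 2.47 in replicate 2 and 2.72 in replicate 1. The order of these 6 genes was the same in both libraries. The Psmc4 stretch, shown for its CTCF and NRF1 letters, covers chr7:28050102-28050351 on the minus strand. Psmc6, shown for ETS and SP and KLF letters side by side, covers chr14:45329538-45329787 on the plus strand.

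Psmc4: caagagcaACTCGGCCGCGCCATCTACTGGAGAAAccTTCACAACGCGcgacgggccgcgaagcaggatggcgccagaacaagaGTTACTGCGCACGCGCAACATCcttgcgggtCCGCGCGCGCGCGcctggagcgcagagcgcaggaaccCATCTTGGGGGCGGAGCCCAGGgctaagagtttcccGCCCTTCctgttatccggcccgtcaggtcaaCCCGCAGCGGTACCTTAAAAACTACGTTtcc
Psmc6: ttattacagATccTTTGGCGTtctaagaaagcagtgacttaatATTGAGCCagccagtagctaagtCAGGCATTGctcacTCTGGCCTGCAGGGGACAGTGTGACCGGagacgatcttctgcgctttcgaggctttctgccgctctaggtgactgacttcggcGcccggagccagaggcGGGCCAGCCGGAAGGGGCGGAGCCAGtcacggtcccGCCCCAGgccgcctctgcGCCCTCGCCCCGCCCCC

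Psmc4 was the only proteasome gene with CTCF letters in a footprint of both libraries. In Psmc6 the ETS letters start 64 bases and the adjoining SP and KLF letters 57 bases before the start site, in the same shared footprint.

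The other cap genes, which encode the scaffold, the ubiquitin receptors and the deubiquitinase, were open at 11 of 11. Psmd4, a ubiquitin receptor, had the highest mean signal of all 47 genes, with 15.9 in replicate 2 and 12.5 in replicate 1, at percentile 95.7 of all protein-coding genes. Psmd8, a scaffold subunit, had 10.5 in replicate 2 and 10.8 in replicate 1, and Psmd11, another, had 9.37 in replicate 2 and 9.72 in replicate 1. Psmd3 had 8.42 in replicate 2 and 8.89 in replicate 1, and Psmd2, which docks ubiquitin shuttle factors, had 6.18 in replicate 2 and 8.12 in replicate 1. The scaffold gene Psmd12 had 6.59 in replicate 2 and 11.6 in replicate 1, the widest relative gap of the cap.

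Psmd14, the deubiquitinase, was the lowest of these genes by mean signal, with 3.57 in replicate 2 and 4.39 in replicate 1, while Psmd7, with which it forms a dimer, had 5.93 in replicate 2 and 6.48 in replicate 1. Psmd13 (5.95 in replicate 2, 6.88 in replicate 1), Psmd1 (4.74 in replicate 2, 6.01 in replicate 1) and Psmd6 (3.48 in replicate 2, 5.37 in replicate 1) completed the group. Every cap gene of this kind lay above Psmc1, the lowest ATPase gene, in both libraries. The Psmd4 stretch, as that of the highest gene by mean signal, covers chr3:95042628-95042747. The Psmd7 stretch, for its YY1 and NFE2L1 letters, covers chr8:107588503-107588624, and both are on the minus strand.

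Psmd4: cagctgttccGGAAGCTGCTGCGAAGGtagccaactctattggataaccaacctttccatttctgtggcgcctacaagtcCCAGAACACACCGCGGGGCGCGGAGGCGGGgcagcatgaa
Psmd7: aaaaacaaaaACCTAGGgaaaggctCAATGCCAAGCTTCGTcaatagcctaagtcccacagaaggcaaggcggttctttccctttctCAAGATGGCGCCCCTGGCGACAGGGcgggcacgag

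The ETS letters of Psmd4 start 125 bases before its start site, and the shared footprint begins 2 bases into them. In Psmd7 the YY1 letters start 72 bases before the start site and lie in capitals.

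The assembly genes were open at 7 of 7. Psmd5, a chaperone of the ATPase ring, had 9.79 in replicate 2 and 9.76 in replicate 1, the closest match of the class. The other chaperones of that ring, Psmd10 (6.51 in replicate 2, 6.36 in replicate 1) and Psmd9 (5.30 in replicate 2, 6.17 in replicate 1), were lower. Chaperones of the α ring act as pairs: Psmg1 had 7.61 in replicate 2 and 14.0 in replicate 1, and its partner Psmg2 had 2.85 in replicate 2 and 3.53 in replicate 1. In the other pair, Psmg3 had 2.39 in replicate 2 and 2.76 in replicate 1, and Psmg4 had 5.32 in replicate 2 and 7.21 in replicate 1. In both libraries Psmg1 was thus higher than Psmg2 and Psmg4 higher than Psmg3. The Psmg1 stretch covers chr16:95990961-95991077 and the Psmd5 stretch, which holds the ZBTB33 letters in 2 places, chr2:34870965-34871077, both on the minus strand.

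Psmg1: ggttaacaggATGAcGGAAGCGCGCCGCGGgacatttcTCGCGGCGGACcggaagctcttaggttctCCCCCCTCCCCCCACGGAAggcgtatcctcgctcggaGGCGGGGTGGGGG
Psmd5: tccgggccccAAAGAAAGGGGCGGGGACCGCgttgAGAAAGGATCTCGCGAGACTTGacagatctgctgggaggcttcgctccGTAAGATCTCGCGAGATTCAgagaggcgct

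The ZBTB33 letters of Psmd5 start 72 and 26 bases before its start site, each inside a shared footprint of its own.

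Of the activators and the inhibitor, 5 of 6 were open. Psme4, whose product caps the core as a single chain, had 5.72 in replicate 2 and 7.95 in replicate 1. Psme1 and Psme2 encode the interferon-inducible activator ring. Psme1 had 4.97 in replicate 2 and 4.50 in replicate 1, and Psme2 had 6.91 in replicate 2 and 6.25 in replicate 1. The Psme2 peak covered none of its annotated start sites and also lay within 1 kb of that of a neighbour, Rnf31. Psme3, which encodes a nuclear activator, had 4.80 in replicate 2 and 4.61 in replicate 1, and the inhibitor gene Psmf1 had 4.14 in replicate 2 and 4.84 in replicate 1. These values overlapped across the libraries for Psme1, Psme3 and Psmf1. Psme2b, listed at 0, has 1 exon in the annotation, against 11 for the longest transcript of Psme2, which it resembles. Whether reads can be placed on such a copy was not analysed here. Psmc3ip, which encodes a partner in meiotic recombination and no subunit, had 6.75 in replicate 2 and 6.35 in replicate 1. The Psme4 stretch covers chr11:30771617-30771725 on the plus strand.

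Psme4: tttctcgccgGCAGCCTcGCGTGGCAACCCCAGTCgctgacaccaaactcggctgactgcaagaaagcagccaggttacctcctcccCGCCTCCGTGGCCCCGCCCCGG

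Set side by side, the classes overlapped widely. The median promoter signal of the cap was 6.45 in replicate 2 and 8.12 in replicate 1, and that of the core was 6.44 in replicate 2 and 5.77 in replicate 1. The medians of cap and core thus differed in replicate 1 and were nearly equal in replicate 2. Assembly genes had a median of 5.32 in replicate 2 and 6.36 in replicate 1, and activators and inhibitor 4.89 in replicate 2 and 4.72 in replicate 1. The last class had the lowest median in both libraries, and its 6 genes include Psme2b at 0. By the mean of both libraries, core genes ran from 0 to 13.5, cap genes from 2.60 to 14.2, assembly genes from 2.58 to 10.8 and activators and inhibitor from 0 to 6.84. Within the core, the medians were 6.44 in replicate 2 and 5.97 in replicate 1 for the α ring, and 6.03 in replicate 2 and 5.43 in replicate 1 for the β ring. Within the cap they were 7.06 in replicate 2 and 7.52 in replicate 1 for ATPase genes, and 6.18 in replicate 2 and 8.12 in replicate 1 for the others, so that the order turned between libraries.

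The strongest peaks sat close to the start sites. In 42 of the 45 open genes (93.3%) the peak centre lay within 150 bp of a start site in both libraries, against 72.4% of all open protein-coding genes. The exceptions were Psmb10, Psmd1 and Psme2. With upstream distances negative, the Psmd1 peak was centred at -258.5 bp from the start site in replicate 2 and at -278.5 bp in replicate 1. The Psme2 peak was centred at -569.5 bp in replicate 2 and at -499.5 bp in replicate 1. The strongest peaks of the 2 libraries overlapped in 45 of 45 genes, against 96.1% of all open genes. A start site was covered in both libraries in 39 of the 45 (86.7%), against 67.5% of all open genes. The strongest peaks had a median width of 240 bp in replicate 2 and 220 bp in replicate 1, against 240 bp in each library over all open genes. A single promoter peak was listed at 27 of 47 genes in replicate 2 (57.4%) and 25 in replicate 1 (53.2%), against 46.4% of all open genes in replicate 2 and 45.6% in replicate 1. The 47 include 2 genes without a peak, while the shares over open genes leave such genes out. Peaks further away, in the gene or within 10 kb of it, were found in both libraries at 25 of the 45 open genes (55.6%), against 55.7% of all open genes. Psma6 had 9 of these in replicate 2, the most there, and 6 in replicate 1, where Psmd12 also had 6.

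**Figure D2:**
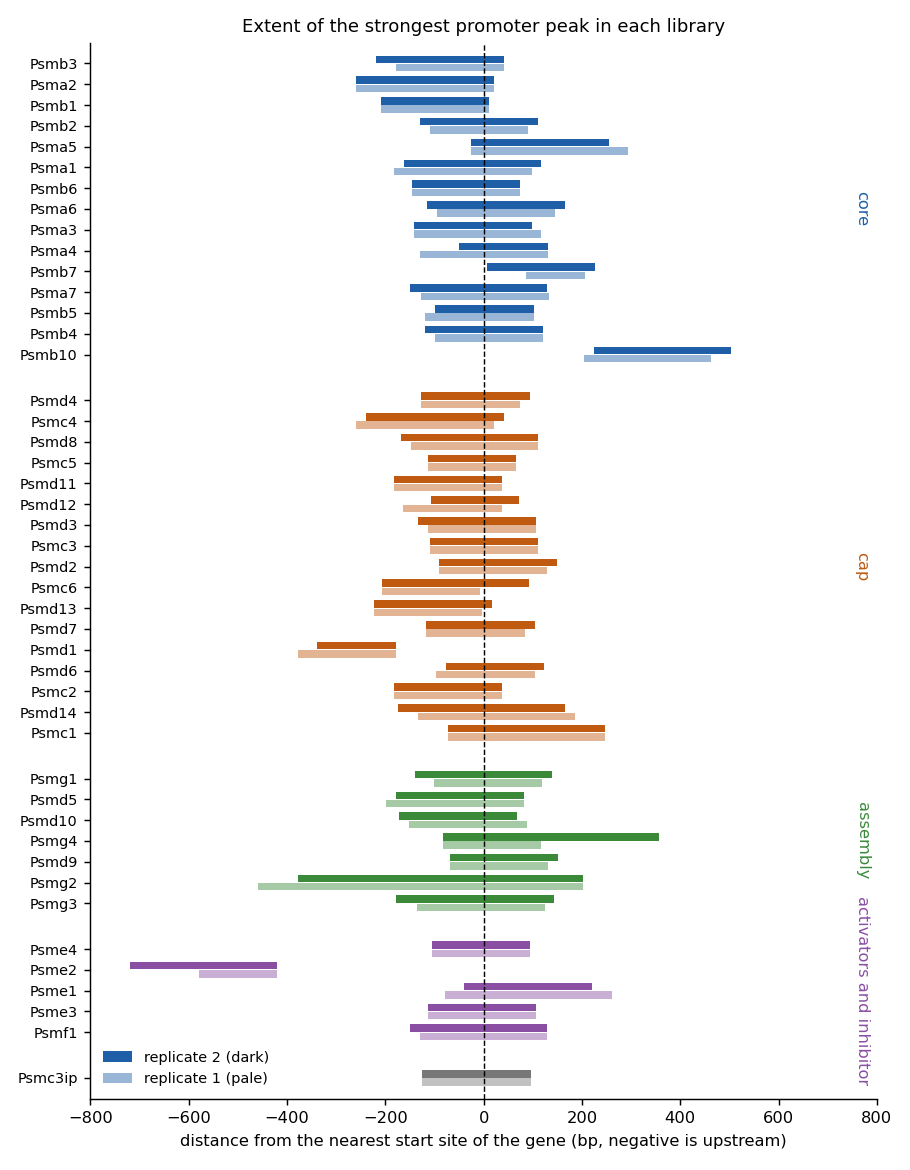
Extent of the strongest promoter peak of each open proteasome gene in replicate 2 (dark bars) and replicate 1 (pale bars) relative to the nearest start site (x axis, bp, negative is upstream). The bars of 42 genes are centred within 150 bp of the start; those of Psme2 and Psmd1 lie upstream, and that of Psmb10 lies downstream.

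Several promoters face a neighbour. The strongest peak of 11 open proteasome genes (24.4%) also lay within 1 kb of a start site of another protein-coding gene, against 18.8% of all open genes. The signal of such a peak cannot be taken as that of the proteasome gene alone. In 10 of the 11 the neighbour is read from the opposite strand. The nearest start sites were 32 bp apart for Psmc2 and Dnajc2, 75 bp for Psma2 and Mrpl32 and for Psmc5 and Ftsj3, 76 bp for Psma7 and Ss18l1, 99 bp for Psmd13 and Sirt3, and 137 bp for Psmb1 and Tbp. Further apart were Psmd10 and Atg4a (179 bp), Psma4 and AY074887 (208 bp), Psmg2 and Cep76 (263 bp) and Psme2 and Rnf31 (607 bp). The Psme2 peak covered no annotated start site of Psme2 in either library. It was centred at -569.5 bp from the nearest one in replicate 2 and at -499.5 bp in replicate 1. The neighbour of Psmg3, Gm26938, lies on the same strand, 436 bp away. The median signal was 6.42 for these 11 genes and 6.69 for the 34 open genes that share no such peak, by the mean of both libraries.

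Signals per gene differed little between the libraries for most members. After the median log2 ratio of all open genes (replicate 2 over replicate 1, -0.14) was subtracted, the median of the 45 open proteasome genes was 0.07, with 27 genes higher and 18 lower in replicate 2. In 42 of the 45 (93.3%) the difference was under 0.5 on the log2 scale, against 87.9% of all open genes. The largest differences were those of Psmb6 (0.68), at percentile 98.6 of all open genes, and of Psmg1 (-0.74), at percentile 1.61. Psmd12 stood at -0.67, and its strongest peaks, though overlapping, were centred at -17.5 bp from a start site in replicate 2 and at -63.5 bp in replicate 1. The central 95% of all open genes ran from -0.67 to 0.60. By class the median was 0.14 for the core, 0.02 for the cap, -0.08 for assembly genes and 0.20 for activators and inhibitor.

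**Figure D3:**
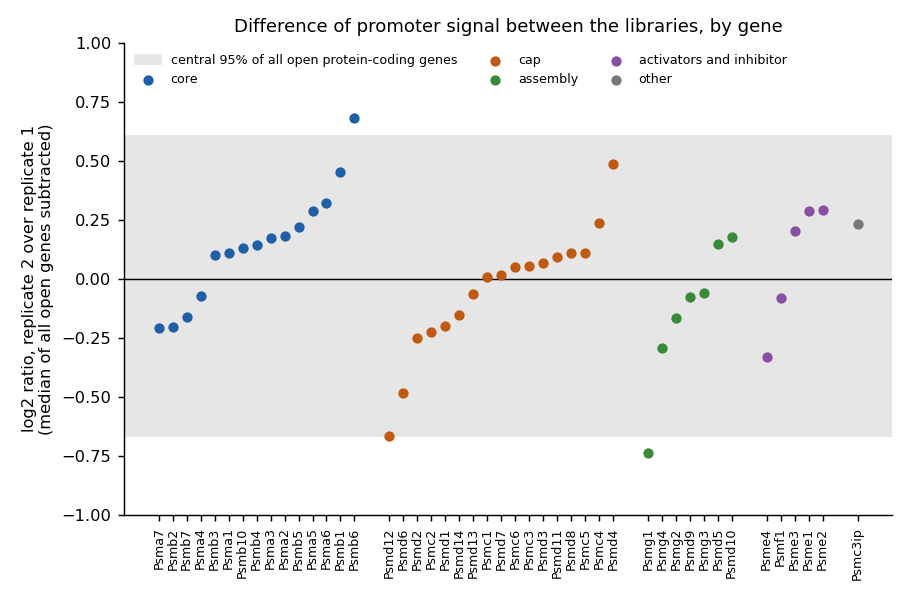
Log2 ratio of promoter signal, replicate 2 over replicate 1, after subtraction of the median of all open genes (y axis), for each open proteasome gene (x axis, by class and then by value). The grey band holds the central 95% of all open protein-coding genes, -0.67 to 0.60; Psmb6 lies above it and Psmg1 below.

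Footprints lay near the start sites of the same 45 genes. A footprint that overlapped one of the other library was found within 1 kb at 45 of 47 genes (95.7%). The share was 54.3% of all protein-coding genes and 98.4% of open ones, so it largely follows whether a gene is open. Together the 47 genes had 425 footprints in replicate 2 and 381 in replicate 1, of which 264 in replicate 2 (62.1%) and 263 in replicate 1 (69.0%) overlapped one of the other library. Over all protein-coding genes these shares were 60.6% in replicate 2 and 67.0% in replicate 1. The median gene had 9 footprints in replicate 2 and 8 in replicate 1, against 10 in replicate 2 and 9 in replicate 1 for all open genes. By class, the medians were 7.5 in replicate 2 and 8.5 in replicate 1 for the core, 9 in replicate 2 and 8 in replicate 1 for the cap, 11 in replicate 2 and 9 in replicate 1 for assembly genes, and 7.5 in replicate 2 and 6.5 in replicate 1 for activators and inhibitor. Psma7 had 21 in replicate 2, the most there, and 15 in replicate 1, where Psmg2 also had 15. Psmb1 had the most that were shared, 11 of 13 in replicate 2 and 12 of 14 in replicate 1. They ran from -1684 to 119 bp around its representative start site, as the count pools the surroundings of 3 start sites. Psmb5 had few, 3 in replicate 2 and 5 in replicate 1.

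The shared footprints of the 45 open genes together were densest just before the start site, while those of the cap were densest 1 bin of 25 bases further upstream, at 34.1%. In the 25 bases before it, 39.1% of bases of the 45 open proteasome genes lay in footprints of both libraries, against 25.6% for all open protein-coding genes. The share was 43.5% in the 15 core genes, 30.4% in the 17 cap genes and 51.4% in the 7 assembly genes. In the 25 bases from the start site on, it was 36.8% in core genes, 10.4% in cap genes and 16.6% in assembly genes, and in the next 25 bases 9.87% in core genes, 31.1% in cap genes and 22.9% in assembly genes. Each curve averages few genes, and a gene with a long footprint weighs on it.

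**Figure D4:**
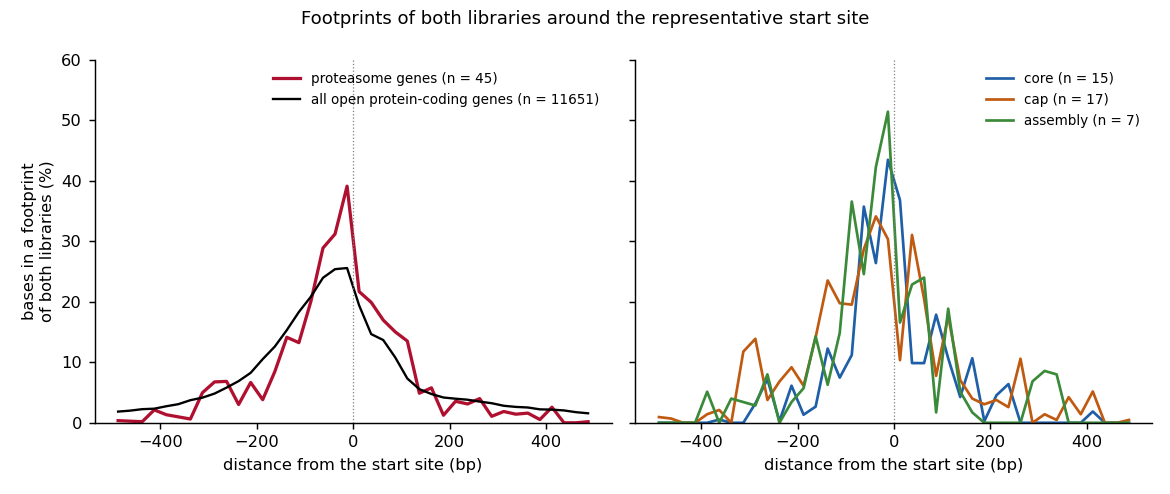
Share of bases inside a footprint of both libraries (y axis, %) by distance from the representative start site (x axis, bp, in bins of 25), for all open proteasome genes and all open protein-coding genes (left) and for core, cap and assembly genes (right). Proteasome genes reach 39.1% in the bin before the start, against 25.6% for all open genes.

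The consensus letters divided the classes unevenly. ETS letters were found in the windows of 18 proteasome genes (38.3%), against 11.1% of all protein-coding genes and 19.7% of CpG-rich ones. By class they were in 10 of 17 cap windows, 2 of 16 core windows, 2 of 7 assembly windows, 3 of 6 windows of activators and inhibitor, and that of Psmc3ip. The 2 core genes were Psma6 and Psma8. Of the genes with these letters, Psma8 and Psme2b were not open. The matches started between 125 bases before and 28 bases after the start site, with a median of 29 bases before it. ETS letters lay in a footprint of both libraries at 8 genes (17.0%), against 7.91% of all protein-coding genes and 14.8% of open ones. These genes were Psmc6, Psmd4, Psmd13 and Psmd14 of the cap, with Psmg1, Psme3, Psme4 and Psmc3ip. Psmd13 and Psmd14 held no ETS letters in their windows. Without the widening of footprints the count was 4.

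SP and KLF letters were the most frequent, in 28 windows (59.6%), against 45.4% of all protein-coding genes and 76.9% of CpG-rich ones. Cap windows held them in 13 of 17, core windows in 8 of 16 and assembly windows in 4 of 7. In a footprint of both libraries they lay at 27 genes (57.4%), against 36.7% of all genes and 68.1% of open genes. YY1 letters were in 9 windows (19.1%), against 6.34% of all genes and 8.78% of CpG-rich ones, 5 in core and 4 in cap windows and none in assembly windows. In a footprint of both libraries they lay at Psmb1, Psmb5 and Psmd7 (6.38%), against 3.07% of all genes and 5.72% of open genes. NF-Y letters were in 17 windows (36.2%), against 38.6% of all genes; in footprints of both libraries they lay at 8 genes (17.0%), against 10.5% of all genes and 19.5% of open genes, 5 of them core and none of them cap genes. Without the widening of footprints that count was 4.

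NRF1 letters were in 7 windows (14.9%), against 6.1% of all protein-coding genes and 12.7% of CpG-rich ones, and 7 genes held them in a footprint of both libraries, against 7.94% of all genes and 14.8% of open genes. Those with the letters in footprints were the α genes Psma2, Psma3, Psma4 and Psma5, the ATPase genes Psmc4 and Psmc5, and Psmg1. NFE2L1, which drives proteasome genes when the proteasome is inhibited, has letters that were in 7 windows (14.9%), against 12.8% of all genes. In a footprint of both libraries they lay at Psmb5, Psmb6, Psmd7 and Psmd9, against 4.19% of all genes and 7.83% of open genes. ZBTB33 letters, found in 0.605% of all windows, were in those of Psmb2 and Psmd5, and in footprints of both libraries at the same genes, against 0.651% of all genes and 1.21% of open genes. Set against open genes, the shares in footprints of the ETS, YY1, NRF1 and NFE2L1 letters were thus close to the background.

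E-box letters were in 7 windows (14.9%), against 7.71% of all protein-coding genes and 11.5% of CpG-rich ones. IRF letters were in 6 windows (12.8%), against 3.59% of all genes and 2.18% of CpG-rich ones. Neither lay in a footprint of both libraries at any proteasome gene, where the share over all genes was 2.96% for the E-box and 0.325% for IRF factors, and over open genes 5.52% for the E-box and 0.601% for IRF factors. RUNX letters were in 8 windows (17.0%), against 14.9% of all genes, also with none in such a footprint, against 1.93% of all and 3.60% of open genes. Ikaros letters were in 12 windows, against 24.9% of all genes, and in such footprints at 3 genes, against 4.41% of all and 8.19% of open genes. NF-kB letters were in no window and no such footprint, against 0.454% of all windows and, in footprints, 0.0641% of all and 0.112% of open genes. TBP letters were in 5 windows, against 12.6%, and in footprints at Psmd6, against 0.761% of all and 1.41% of open genes. HSF letters were in 2 windows, against 7.41%, and in footprints at Psmf1, against 0.669% of all and 1.24% of open genes. CTCF letters were in 2 windows, against 2.51%, and in footprints at Psmc4, against 2.44% of all and 4.41% of open genes. ZNF143 letters were in 2 windows, against 1.51%, and in footprints at none, against 0.435% of all and 0.815% of open genes. CREB and ATF letters were in the window of Psmb2 alone, against 2.5%, and in its footprints, against 2.51% of all and 4.69% of open genes. A match says only that the letters are present, and which factor, if any, was bound was not measured. Overlap between families within the windows was rare: NF-Y with CREB and ATF at Psmb2, ETS with SP and KLF at Psma8 and Psme4, and NFE2L1 with SP and KLF at Psmd9.

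**Figure D5:**
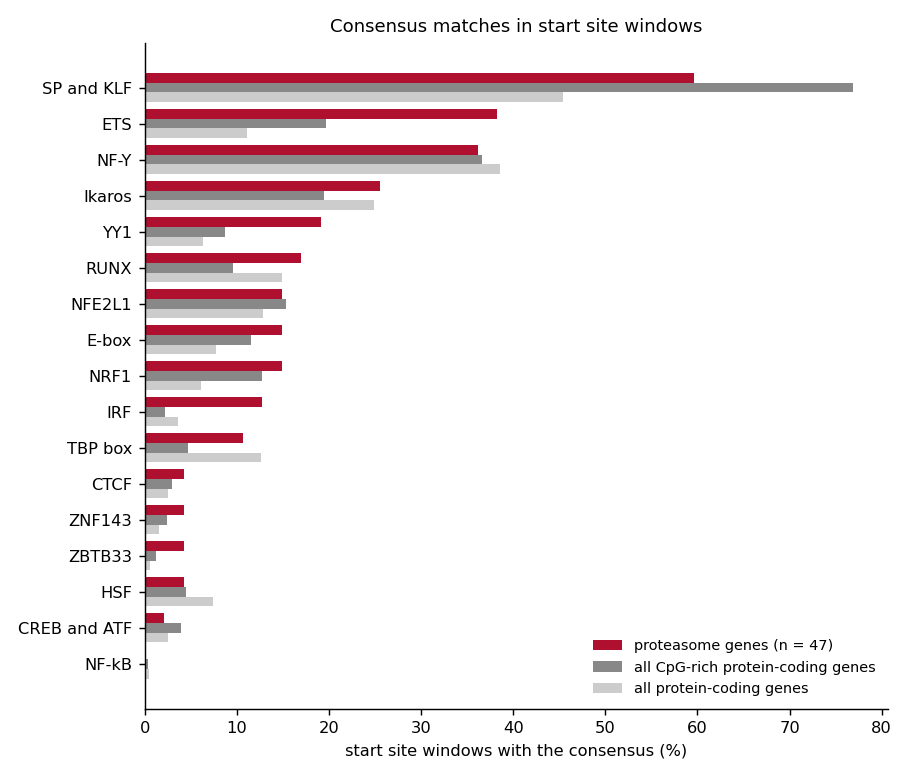
Share of start site windows (x axis, %) that hold the consensus of each of 17 factor families (y axis) for the 47 proteasome genes (red), all CpG-rich protein-coding genes (dark grey) and all protein-coding genes (light grey). ETS letters stand at 38.3%, 19.7% and 11.1%, and SP and KLF letters at 59.6%, 76.9% and 45.4%, in that order of sets.

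Genes that work with the proteasome were open as well. Of a list of 28 co-factors, shuttle factors, ubiquitin genes and regulators, 27 were matched to the annotation and 27 had a promoter peak in both libraries, against 53.4% of all protein-coding genes. Their strongest peaks overlapped between libraries in 24 of 27 (88.9%), against 96.1% of all open genes. The median signal of the 47 proteasome genes was 5.95 in replicate 2 and 6.35 in replicate 1, and that of the co-factors was 5.86 in replicate 2 and 7.20 in replicate 1, so that the order of the sets turned between libraries. By the mean of both libraries the highest were Uba6, a ubiquitin-activating enzyme (22.6 in replicate 2, 20.2 in replicate 1), Rad23b, a shuttle factor (17.0 in replicate 2, 21.0 in replicate 1), and Ubb, a ubiquitin gene (17.9 in replicate 2, 16.3 in replicate 1). All 3 lay above each of the 47 proteasome genes in both libraries. Psmb9, left out by the symbol rule, exceeded Ubb in replicate 1, with 16.6. In replicate 2 alone, Nfe2l1 (18.4) and Zfand2a (18.4), named after their values were seen, also exceeded Rad23b and Ubb.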

How the data were processed

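For each of 2 libraries of thymus, DNase-seq results were deposited per library, on mm10 per the labels, as a shorter and a longer peak list, footprints, and runs of bases with a q-value. The authors deposited 1 signal value per peak, and its scale, the peak caller and the aligner were not found in the labels or files. The footprint lists and the base runs deposited by the authors hold p-value or q-value columns; each footprint carries the constant 0.01, so positions alone were used. Read depth is unknown, which leaves the precision of a signal unstated.

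Genes and start sites were taken from the GENCODE M21 basic annotation and sequence from GRCm38, whose chromosome names and lengths are those of mm10. The representative start site is that of the best-ranked principal coding transcript, then the best supported, then the most upstream. A peak or footprint belonged to a gene if its centre lay within 1 kb of a start site, and libraries shared one if they overlapped by at least 1 bp. Python 3.11.15, pandas 2.3.3, pysam 0.24.0 and samtools 1.23.1 were used, and the steps were checked on simulated peaks and sequence. With 1 group of 2 libraries no test was run: counts and medians are set beside those of all protein-coding genes. The members and gene lists were chosen with earlier results of these data known. All members could be named with values; other genes were the 3 highest co-factors, left-out subunits, lists' unopened genes and neighbours sharing a peak. Alternatives covered peak list, window, strength, overlap, start site, footprint rule, consensus window and each library alone.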

Additional observations from a re-analysis of the deposited data

How the results depend on the processing

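The number of open proteasome genes was 44 or 45 under the alternatives for peak list, window, strength, overlap, start site and library, while that of all protein-coding genes ran from 46.1% to 57.8%. No paired analysis was possible because there is 1 group. With 1 library left out, the median promoter signal ran from 5.95 to 6.35 over all members, from 5.32 to 6.36 for assembly genes and from 4.72 to 4.89 for activators and inhibitor, and the median number of footprints from 7.5 to 8.5 for the core and from 8 to 9 for the cap. The footprint medians, 8.5 over all members by the mean of both libraries, also moved with the window: within 500 bp they were 7.5 over all members, 7.25 for the core and 6 for activators and inhibitor, and within 2500 bp 9.25 for the core. With footprints inside peaks alone they were 6 over all members, 5.75 for the core, 5.5 for the cap, 6 for assembly genes and 5.75 for activators and inhibitor, by the construction of that count. The median log2 ratio between libraries was -0.077 with signals as deposited. Without widened footprints, ETS letters lay in footprints at 4 genes, NF-Y letters at 4, NFE2L1 letters at 2 and YY1 letters at 2. ZBTB33 letters then lay in footprints at 1 gene, and Ikaros, TBP and HSF letters at 0. Longer windows ran from 500 bases before to 100 after the start site. In these, NFE2L1 letters were in 17 of 47, against 21.9% of all genes, and NF-Y letters in 27, against 57.54%. Ikaros letters were in 24 of the 47 longer windows, against 43.66% of all genes, and TBP letters in 10, against 25.04%. As alternatives chosen after seeing the data, leaving out genes that share a peak with a coding neighbour gave 34 of 36 open, and leaving out Psmc3ip 44 of 46. Depth is unknown, and only 2 libraries, perhaps of 1 animal, give the spread.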
